A study of Homo sapiens with 2 samples.

Results

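The transcription factor NF-kB is a dimer built from 5 related subunits and held in check by a set of inhibitors. Transcripts of 10 genes were followed here, the 5 subunit genes NFKB1, NFKB2, REL, RELA and RELB and the 5 inhibitor genes NFKBIA, NFKBIB, NFKBIE, TNFAIP3 and TNIP1. The members were every probe set, a group of short probes for one transcript, that the platform annotation assigns to 1 of these genes alone. They came to 22 probe sets of 54613 on the array and 10 genes of 19775, with 12 probe sets for subunits and 10 for inhibitors. The genes were listed by their role in the pathway, but with earlier results of these arrays known.

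The 2 samples carry the cell line label HL60, a human promyelocytic leukaemia line, and the labels give the cell type as hematopoietic stem. In 1 sample the cells had 3 µg/ml of eltrombopag for 36 h, and in the other they were left untreated. Both grew in RPMI with 10% serum. Eltrombopag activates the thrombopoietin receptor and is an iron chelator. The labels name no vehicle for the untreated sample and no culture time, so the drug and a difference in either cannot be told apart. With 1 sample per group there is no replicate error, and no test of the treatment was possible. Every comparison is between 2 arrays.

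In resting cells the dimers are kept in the cytoplasm by the inhibitors of the IkB family, among them the products of NFKBIA, NFKBIB and NFKBIE. A signal through receptors such as those for tumour necrosis factor, interleukin-1 or bacterial products activates the IKK kinase complex, which marks IkB for destruction and frees the dimer to enter the nucleus. NF-kB then drives transcription of its own inhibitors: newly made NFKBIA protein removes the dimer from DNA, and the TNFAIP3 protein, a ubiquitin-editing enzyme, works with its partner TNIP1 to shut off the signal upstream of IKK. Genes of several subunits are targets as well, which is why inhibitor and subunit transcripts are compared here. In myeloid cells the pathway is known for driving cytokine and chemokine genes.

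The sequence through which NF-kB acts, the kappaB decamer, is shown for the pair of members with the largest ratios and, for contrast, for a subunit whose signals were close in both samples. The 250 bases upstream of the start of each gene are printed 5′ to 3′ on the gene's strand, from RefSeq's promoter table for assembly GRCh38.p14. Capitals mark every match to the kappaB consensus, searched on both strands. The NFKBIA window is chr14:35404750-35404999 on the minus strand, that of TNFAIP3 is chr6:137867009-137867258 on the plus strand, and that of NFKB1 is chr4:102501109-102501358 on the plus strand.
NFKBIA: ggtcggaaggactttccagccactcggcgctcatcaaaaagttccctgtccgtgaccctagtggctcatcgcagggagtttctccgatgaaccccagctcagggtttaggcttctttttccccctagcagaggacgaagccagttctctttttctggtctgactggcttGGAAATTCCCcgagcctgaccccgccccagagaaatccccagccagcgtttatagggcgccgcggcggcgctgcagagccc
TNFAIP3: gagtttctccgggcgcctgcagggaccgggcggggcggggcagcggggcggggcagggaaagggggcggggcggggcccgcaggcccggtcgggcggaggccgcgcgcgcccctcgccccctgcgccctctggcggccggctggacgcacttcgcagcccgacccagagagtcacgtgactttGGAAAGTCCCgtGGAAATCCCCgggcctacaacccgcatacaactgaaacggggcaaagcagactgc
NFKB1: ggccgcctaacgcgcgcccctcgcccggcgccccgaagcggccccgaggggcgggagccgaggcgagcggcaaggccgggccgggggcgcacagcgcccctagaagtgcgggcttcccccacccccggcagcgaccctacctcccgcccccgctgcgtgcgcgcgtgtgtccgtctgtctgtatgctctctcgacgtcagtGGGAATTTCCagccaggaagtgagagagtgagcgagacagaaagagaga

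NFKBIA held 1 match, GGAAATTCCC, whose first base lay 81 bases upstream of the start. TNFAIP3 held 2, GGAAAGTCCC at 67 bases and GGAAATCCCC at 55 bases upstream. NFKB1 held GGGAATTTCC at 49 bases upstream, in the first of its 2 windows. In the full windows of 250 bases before and 50 after the start, REL, NFKB2, NFKBIB and TNIP1 held at least 1 match too, RELA held none in either of its 2 windows, and RELB and NFKBIE were not analysed here. A match was thus present in 7 of the 8 member genes with a window, and in 8 of their 14 windows. A match was found in 11.3% of all 35116 windows, and 13.3% of 27305 genes had one in at least 1 window. One stretch can match on both strands, as GGGAATTCCC of NFKB2 does. A match in these letters is no evidence of binding in these cells, and it was present in members with large and with small ratios alike.

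The values are MAS5 signals, a linear brightness per probe set. Signals at or below 56.9, the 60th percentile of both arrays pooled, are called below the floor and were set equal to it ahead of the log2 step. A gene counts as measured if 1 or more of its probe sets exceeded the floor in either sample, and its brightest such probe set gave its ratio. Ratios are eltrombopag over untreated. The median signal of all probe sets was 31.5 in the eltrombopag and 32.8 in the untreated sample, and 39.3% of probe sets in the eltrombopag and 40.7% in the untreated sample lay above the floor. Across 10324 measured genes the median log2 ratio was -0.12, with quartiles of -0.37 and 0.11, so a member with a ratio of 0 stood slightly above the middle of the genes. Error within the arrays can be judged only from how far probe sets of the same gene disagree. For the 2 brightest probe sets of 4373 genes, the log2 ratios differed by a median of 0.21 with an upper quartile of 0.39, which says nothing of variation between cultures.

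The cell line label was set against marker genes, drawn up with earlier results known. Of 16 promyelocyte and myeloid markers with a probe set, 13 were measured, among them MPO, myeloperoxidase, with signals of 1467 in the eltrombopag and 1556 in the untreated sample, while ELANE, SPI1 and LYZ lay below the floor in both. Of 16 plasma cell markers 14 were measured as well, which goes against the label. Of all 19775 genes 10324 were measured. JCHAIN, which joins antibody units, had 4866 in the eltrombopag and 7972 in the untreated sample. IRF4, a lymphoid and plasma cell transcription factor, had 131 in the eltrombopag and 677 in the untreated sample. The signals of the measured plasma cell markers summed to 11607 in the eltrombopag and 18734 in the untreated sample, with 5 of 14 at least 2-fold lower, where 2.27% of all measured genes were. That sum was carried by JCHAIN and the transcription factor XBP1, at 3268 in the eltrombopag and 3441 in the untreated sample (log2 ratio -0.07). The signals of the measured myeloid markers summed to 18741 in the eltrombopag and 18625 in the untreated sample, a sum carried by SRGN, a granule proteoglycan, and the transcription factor MYB. Of the 13 myeloid markers 9 had a ratio below 0 and 4 above, where 36.6% of all measured genes were above 0. Their median log2 ratio was -0.21, beside -0.12 over all measured genes. CEBPA, a granulocyte transcription factor (log2 ratio -1.55), and CSF3R, the G-CSF receptor (-1.17), were past 2-fold, while PRAM1 had -0.88, the granule protease CTSG -0.84 and RNASE2 -0.76. The 4 with a ratio above 0 were FUT4 (0.57), MYB (0.43), AZU1 (0.26) and SRGN (0.10), by their brightest probe sets. Few markers of T cells (2 of 10), B cells (3 of 9) or monocytes and macrophages (2 of 9) were measured. The part of these differences in the results that follow was not tested. In such bulk RNA, fewer cells of a type and less RNA per cell cannot be told apart.

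NFKBIA and TNFAIP3, feedback inhibitors that act on the dimer itself and upstream of IKK, had the largest ratios of the 9 measured members, and the 7 others stayed under 1.5-fold in their brightest probe sets. NFKBIA and TNFAIP3, so 2 of 9, passed the 2-fold limit on the higher side in the eltrombopag sample, and 0 did on the lower side. Of all measured genes 0.649% passed 2-fold and 3.49% passed 1.5-fold on the higher side, and 2.27% passed 2-fold on the lower side. The probe sets used for these 9 all lay above the floor in both samples. A ratio above 0 was found for 8 of the 9 members (NFKBIE was the other, and turned positive after quantile normalization and lowess), against 36.6% of all measured genes. All 9 lay above the median of the genes, NFKBIA by 1.44 and TNFAIP3 by 1.39 on the log2 scale. RELB was not measured.

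**Figure D1:**
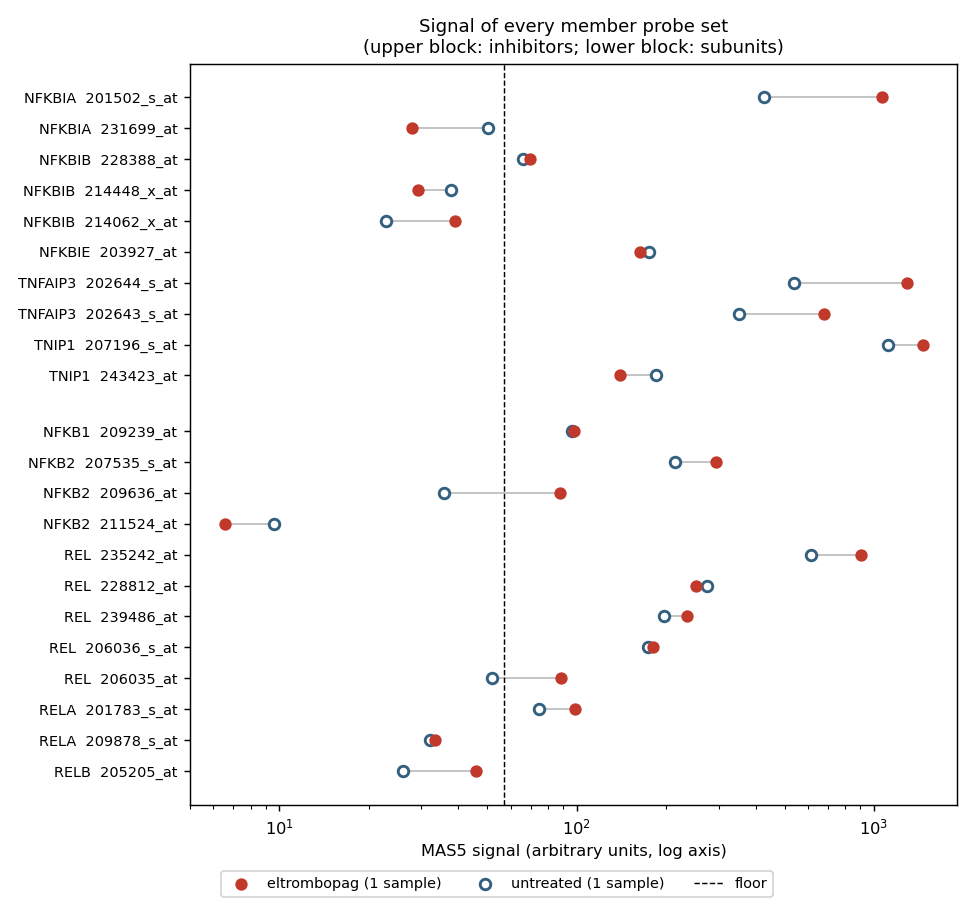
MAS5 signal (log axis) of all 22 member probe sets in the eltrombopag (filled) and untreated (open) sample, with the floor of 56.9 as a dashed line. The probe sets 201502_s_at of NFKBIA and 202644_s_at and 202643_s_at of TNFAIP3 show the widest gaps among probe sets brighter than the floor in both samples, and 6 lie below it in both.

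NFKBIA encodes IkB-alpha, the inhibitor that is degraded and made again fastest. Its bright probe set, 201502_s_at, had a signal of 1061 in the eltrombopag sample, against 426 in the untreated sample. The ratio was 2.49-fold (log2 ratio 1.32), and 28 of 10324 measured genes, 0.271%, had a ratio at least as high, NFKBIA included. The other NFKBIA probe set, 231699_at, pointed the other way, at 28.0 in the eltrombopag and 50.2 in the untreated sample, but both lay below the floor, so it gives no ratio. The NFKBIA result therefore rests on 1 probe set.

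TNFAIP3 encodes a ubiquitin-editing enzyme, often called a brake on NF-kB, that removes and adds ubiquitin chains on signalling proteins. Its probe set 202644_s_at had 1296 in the eltrombopag sample, against 536.8 in the untreated sample, a ratio of 2.41-fold (log2 ratio 1.27). The second, 202643_s_at, had 678.3 in the eltrombopag and 352.4 in the untreated sample, a ratio of 1.92-fold (log2 ratio 0.94), just short of 2-fold. Both probe sets were higher in the eltrombopag sample, and the gap of 0.33 between their log2 ratios was under the upper quartile of 0.39 given above. The ratio of its brightest probe set was reached by 31 of 10324 measured genes, TNFAIP3 included. The measured probe sets of NFKBIA and TNFAIP3 all carry the suffix _s_at, which marks probes shared by several transcripts, usually of the same gene. Without such probe sets neither gene was measured and 0 members passed 2-fold.

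TNIP1 encodes the adaptor that binds the TNFAIP3 protein. Its brightest probe set, 207196_s_at, had 1457 in the eltrombopag sample, against 1116 in the untreated sample, a log2 ratio of 0.38. The dimmer 243423_at had 140.35 in the eltrombopag and 185.2 in the untreated sample, a log2 ratio of -0.40. They disagree in sign, by 0.78 on the log2 scale, and their mean was -0.01, so TNIP1 has no settled direction.

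The IkB proteins beta and epsilon are encoded by NFKBIB and NFKBIE. NFKBIB had 69.9 in the eltrombopag sample, against 66.1 in the untreated sample (228388_at, log2 ratio 0.08), just above the floor. Its other probe sets stayed under the floor on both arrays, with 29.3 in the eltrombopag and 37.8 in the untreated sample for 214448_x_at. For 214062_x_at the signals were 38.9 in the eltrombopag and 22.8 in the untreated sample, so these dim probe sets differ in direction. NFKBIE, measured by 1 probe set, had 163.8 in the eltrombopag sample, against 174.9 in the untreated sample. Its log2 ratio of -0.09 turned to 0.06 after quantile normalization and 0.05 after lowess. Neither gene shared the size of the ratios of NFKBIA and TNFAIP3.

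**Figure D2:**
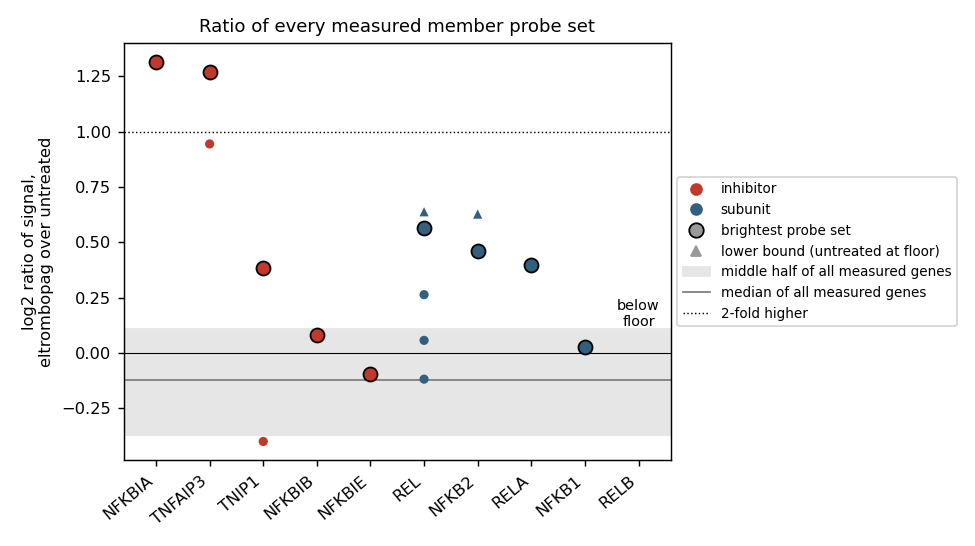
Log2 ratio of signal, eltrombopag over untreated, for each measured member probe set, by gene, with inhibitors on the left (red) and subunits on the right (blue); outlined points are the brightest probe sets, triangles are lower bounds, and the grey band and line give the quartiles and median of all measured genes. NFKBIA (1.32) and TNFAIP3 (1.27) lie above the 2-fold line, the highest subunit is REL at 0.56, and the points of REL and TNIP1 fall on both sides of 0.

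Among the subunits, REL and RELA encode proteins with an activation domain. REL, the subunit typical of lymphoid and myeloid cells, had 5 probe sets, all of them measured. The brightest, 235242_at, had 907.5 in the eltrombopag sample, against 614.4 in the untreated sample (log2 ratio 0.56). The dimmest, 206035_at, had 88.6 in the eltrombopag sample and lay below the floor in the untreated one, at 52.0, so that it was at least 1.56-fold higher. The other 3 gave smaller ratios of mixed sign. Probe set 228812_at had 252.1 in the eltrombopag and 273.7 in the untreated sample (log2 ratio -0.12). For 239486_at the signals were 235.4 in the eltrombopag and 196.1 in the untreated sample (0.26), and for 206036_s_at they were 180.7 in the eltrombopag and 173.7 in the untreated sample (0.06). The mean over all 5 was 0.28, so the size of the REL ratio depended on the probe set.

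RELA encodes the most widely expressed activating subunit. Its probe set 201783_s_at had 98.7 in the eltrombopag sample, against 74.95 in the untreated sample (log2 ratio 0.40). The other, 209878_s_at, lay below the floor in both, at 33.4 in the eltrombopag and 32.2 in the untreated sample. The RELA signals are thus low, and its ratio rests on 1 probe set.

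NFKB1 and NFKB2 encode precursors that are processed to the subunits without an activation domain. NFKB1 had 98.0 in the eltrombopag sample, against 96.3 in the untreated sample (209239_at, log2 ratio 0.02), the smallest ratio in size of the 9 measured members. NFKB2, the subunit of the alternative pathway, had 293.9 in the eltrombopag sample, against 213.7 in the untreated sample (207535_s_at, log2 ratio 0.46). A second NFKB2 probe set, 209636_at, had 87.9 in the eltrombopag sample and lay below the floor, at 35.8, in the untreated one, so that it was at least 1.55-fold higher. The third, 211524_at, lay below the floor in both, at 6.55 in the eltrombopag and 9.57 in the untreated sample. Both measured probe sets of NFKB2 were higher in the eltrombopag sample.

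RELB, the usual partner of the NFKB2 product, had 45.7 in the eltrombopag sample, against 25.96 in the untreated sample. Both signals lay below the floor, so its transcript was too dim here for a ratio.

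The contrast of inhibitors with subunits as classes had no settled direction. The median log2 ratio was 0.38 over 5 inhibitors and 0.43 over 4 measured subunits, a difference of -0.04, beside -0.12 over all measured genes. That difference was 0.32 with the floor at the 75th percentile, -0.26 with probe sets averaged and -0.66 without suffixed probe sets. These settings did not all compare the same genes. The 75th percentile floor lost NFKB1, RELA and NFKBIB, and leaving out suffixed probe sets lost NFKBIA, TNFAIP3 and RELA. The inhibitor median of 0.38 was itself the value of TNIP1, which has no settled direction. The inhibitors spanned -0.09 to 1.32 and the subunits 0.02 to 0.56. NFKBIA and TNFAIP3 lay 0.75 and 0.71 above REL, the highest subunit, while the other 3 inhibitors lay within or below the range of the subunits. Of 4 members with several measured probe sets, NFKB2 and TNFAIP3 had all of them above 0, and REL and TNIP1 had signs of both kinds. Over all 16 measured probe sets, 13 had a ratio above 0 and 3 below. On the higher side 2 of them passed 2-fold, as did 0.722% of all 22990 measured probe sets, and on the lower side 0 did, as did 2.15% of all.

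**Figure D3:**
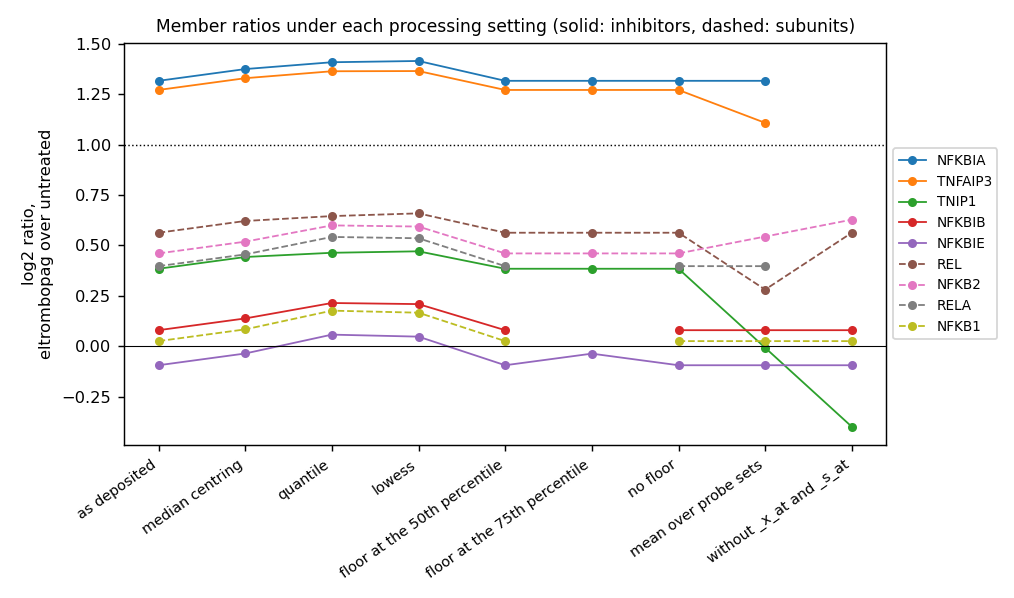
Log2 ratio of each member gene, eltrombopag over untreated, under the values as deposited and 8 other settings, inhibitors as solid and subunits as dashed lines. NFKBIA stays between 1.32 and 1.42 and TNFAIP3 between 1.11 and 1.37 where they are measured; neither has a point without the _x_at and _s_at probe sets, and TNIP1 ends at -0.40 there.

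The rest of the pathway was read from lists of genes by role, which were not picked for how they moved but were drawn up with earlier results known. For the other IkB proteins, 3 of 4 genes were measured and NFKBID, a nuclear IkB protein, was 2.40-fold higher, at 176.2 in the eltrombopag and 73.3 in the untreated sample, with a log2 ratio of 0.74 in another probe set. NFKBIZ, another nuclear member, had 75.9 in the eltrombopag sample and lay below the floor, at 26.5, in the untreated one, so that it was at least 1.33-fold higher. NFKBIL1 had a log2 ratio of -0.13. NFKBID was the 1 gene of this list past 2-fold, where 0.649% of all measured genes passed it on the higher side. The probe set that passed carries the suffix _s_at and fell short of 2-fold with the floor at the 75th percentile.

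The list of the IKK complex and its upstream kinases, which also holds some partner proteins of these kinases, was close to even. None of its 15 measured genes differed by 2-fold in either direction. Of all measured genes 0.649% passed 2-fold on the higher side and 2.27% on the lower. The median log2 ratio of the 15 was -0.01, beside -0.12 over all measured genes. The largest ratios in size were those of IRAK1 (-0.37), MAP3K3 (0.34), IKBKB (-0.33) and IRAK3 (-0.31). IKBKB, the main IkB kinase, had 472.0 in the eltrombopag and 593.8 in the untreated sample, and a second probe set gave 0.34, so its direction was not settled. IRAK3 had 0.43 and 0.21 in other probe sets, against the sign of its brightest.

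Adaptors and ubiquitin enzymes also held no gene past 2-fold, where 0.649% of all measured genes passed it on the higher side and 2.27% on the lower. Of 21 measured genes, 6 had a ratio above 0 and 15 below, where 36.6% of all measured genes lay above 0, and the median was -0.23, beside -0.12 over all measured genes. MYD88, the adaptor of Toll-like and interleukin-1 receptors, had 304.8 in the eltrombopag and 556.2 in the untreated sample (log2 ratio -0.87). TRADD, the adaptor of the main tumour necrosis factor receptor, had a log2 ratio of -0.66, and SHARPIN, of the linear ubiquitin ligase, -0.57. TRAF5 had -0.48.

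Of 22 receptors with a probe set 9 were measured, and their median log2 ratio was -0.36, beside -0.12 over all measured genes. TNFRSF17, the receptor BCMA and also one of the plasma cell markers above, was 4.28-fold lower, at 307.4 in the eltrombopag and 1314 in the untreated sample. It was the 1 receptor past 2-fold in its brightest probe set, where 2.27% of all measured genes were at least 2-fold lower. TNFRSF1B and TNFRSF13B, a tumour necrosis factor receptor and another marker on the plasma cell list, had log2 ratios of -0.69 and -0.59. IL1RAP, the accessory chain of the interleukin-1 receptor, gave 0.55 by its brightest probe set and 1.76 by a dimmer one. Apart from TLR4, the Toll-like receptors on the list were too dim to be measured.

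**Figure D4:**
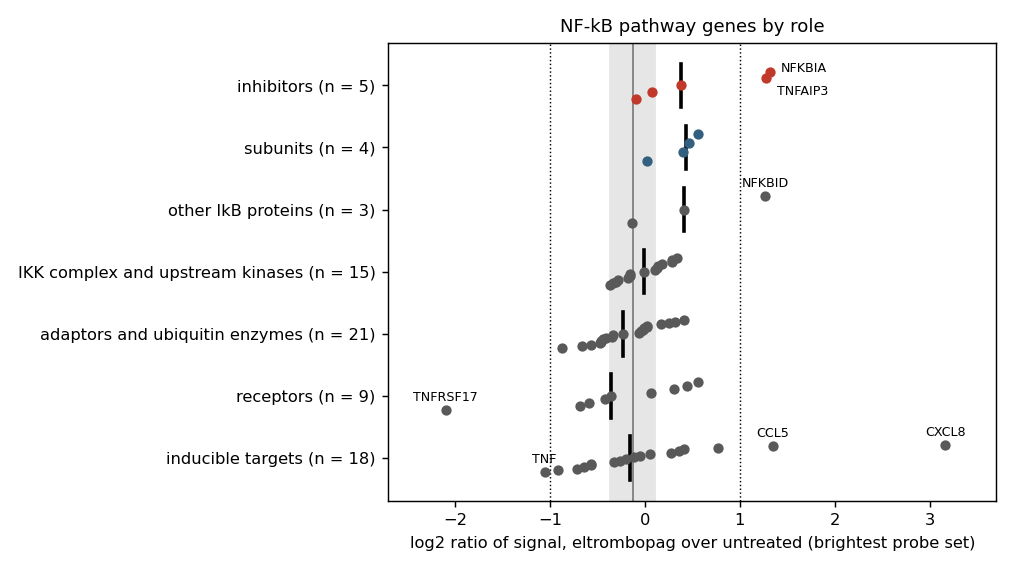
Log2 ratio of the brightest probe set, eltrombopag over untreated, for each measured gene of the 7 lists by role; thick bars are list medians, the grey band and line give the quartiles and median of all measured genes, and dotted lines mark 2-fold. The medians of inhibitors (0.38), subunits (0.43) and other IkB proteins (0.42) lie right of the band, and those of the other 4 lists lie inside it. The 0.42 is the value of NFKBIZ, a lower bound set by the floor, and bounds are not marked here.

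Genes known as NF-kB targets were mixed. Of 36 with a probe set 18 were measured. Of these 18, 2 passed 2-fold on the higher side and 1 on the lower, as did 0.649% and 2.27% of all measured genes. Ratios were positive for 7 and negative for 11, where 36.6% of all measured genes were positive. The median was -0.16, beside -0.12 over all measured genes, but 0.059 with the floor at the 50th percentile, without a floor or without suffixed probe sets. CXCL8, the neutrophil chemokine, had 1138 in the eltrombopag and 127.2 in the untreated sample, and CCL5, a T cell chemokine, 373.6 in the eltrombopag and 146.7 in the untreated sample. The CXCL8 value rests on 1 probe set above the floor. TNF itself was lower, at 188.6 in the eltrombopag and 391.8 in the untreated sample (log2 ratio -1.05), though short of 2-fold under each of the 3 other scalings, and LTB, a related cytokine, gave -0.92 by its brightest probe set and -0.02 by a dimmer one. NFKBIA and TNFAIP3 thus shared their direction with CXCL8 and CCL5 but not with TNF. Nor did they share it with LTB by its brightest probe set. That probe set had 57.7 in the eltrombopag sample, just above the floor, and 109.2 in the untreated sample.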

How the data were processed

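Expression was measured on 1 array per group, 1 eltrombopag and 1 untreated sample. The authors deposited a linear signal intensity for each probe set of each sample. The submitters' processing notes name MAS5, a method that sets perfect-match against mismatch probes on each array separately and is noisy for dim probe sets. Its version and scaling target were not found in the labels. The number of arrays limits the precision.

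Gene names came from the platform annotation, which pairs 41091 probe sets with a single gene and 1801 with several; those 1801, and 11721 that it does not list, stayed unnamed. RefSeq symbols (assembly GRCh38.p14) were taken for the 41037 whose gene identifier matched. Values were kept as deposited, floored at the 60th percentile and turned to log2 ratios with Python 3.11.15, numpy 2.4.6 and pandas 2.3.3. With 1 sample per group no p-value was computed, and genes were counted past 2-fold. The members and lists were chosen with earlier results of these data known. Named genes were all members and, in each pathway list, up to 4 measured genes with the largest ratio in size. MPO, CEBPA, CSF3R, PRAM1, CTSG, RNASE2, SRGN, MYB, FUT4, AZU1, ELANE, SPI1, LYZ, JCHAIN, XBP1, IRF4 and TLR4 were named after their values were seen. Alternatives tried were scaling by median centring, quantiles or lowess (span 0.3, statsmodels 0.14.6), floors at the 50th and 75th percentile or none (signals under 1 set to 1), averaging a gene's probe sets, leaving out _x_at and _s_at probe sets, and thresholds of 1.5-fold and 3-fold. A log2 value is said to have moved where it differed by more than 0.21, the SD per probe set estimated from the disagreement within genes.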

Additional observations from a re-analysis of the deposited data

How the results depend on the processing

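The log2 ratios of NFKBIA and TNFAIP3 stayed above 1 under each of the 7 settings that measured them, at 1.32 to 1.42 and 1.11 to 1.37. Without _x_at and _s_at probe sets they were not measured, which left 0 members at least 2-fold higher, and at 3-fold there were also 0. Over all genes the 2-fold changes were 67 higher and 234 lower as deposited, 82 and 186 after median centring, 108 and 133 after quantile normalization and 106 and 135 after lowess, so higher genes made up 22.3%, 30.6%, 44.8% and 44.0%; quantile normalization and lowess moved the median of all genes from -0.12 to -0.01. The counts were 1194 and 1324 without a floor, 37 and 98 with the 75th percentile floor, 360 and 1218 at 1.5-fold and 18 and 19 at 3-fold.

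The median of the inhibitors was 0.83 with the 75th percentile floor, 0.079 when probe sets were averaged and -0.095 without suffixed ones. The inhibitors minus the subunits came to 0.32, -0.26 and -0.66 under the same settings. That contrast was above 0 only with the 75th percentile floor, under which NFKB1, RELA and NFKBIB were no longer measured. For the other IkB proteins the median was 1.24 with the 50th percentile floor, 0.048 with the 75th and 1.26 with none, and the count of higher genes was 2 with the 50th percentile floor or none and 0 with the 75th, without suffixed probe sets or at 3-fold. For receptors the median was -0.11 with the 75th percentile floor and -0.12 with none, 1 gene was higher with the mean over probe sets, and 3 were lower at 1.5-fold. For adaptors 1 gene was higher and 1 lower with no floor, and 2 were lower at 1.5-fold. For targets the median was 0.059 with the 50th percentile floor, with none and without suffixed probe sets, the count of higher genes was 7 with no floor and 1 without suffixed probe sets or at 3-fold, and the count of lower genes was 0 after each of the 3 scalings, without suffixed probe sets and at 3-fold, and 4 at 1.5-fold. The cause was not tested. Of 250 values recomputed, 212 stayed within the limits and 38 moved. A log2 value changed sign in 14 of them, none of which was past 2-fold as deposited: TNIP1 (-0.01 with probe sets averaged and -0.40 without suffixed ones), NFKBIE (0.06 after quantile normalization and 0.05 after lowess), the inhibitor median, the contrast of inhibitors with subunits, the median of the targets, and that of the IKK list, which ran from -0.01 as deposited to 0.085 after lowess. No paired analysis was possible because each group has 1 sample. Signal over background limits RELB, RELA, NFKB1 and NFKBIB, which lie near or below the floor.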

Other observations

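The kappaB consensus was also counted over all measured genes, members included. Of those with a promoter window, 1438 of 8507 (16.9%) held a match. Of genes at least 2-fold higher in the eltrombopag sample 9 of 51 (17.6%) held one, and of genes at least 2-fold lower 34 of 183 (18.6%). In the list of known targets 18 of 35 genes (51.4%) held one. These shares are descriptions of 300 bases around each start and were not tested.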
